A study of Patiria miniata with 46 samples.

Results

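The 150 loci described here were those whose RNA was most concentrated in the first 3 sections along the length of an arm of the bat star Patiria miniata, a sea star. They were chosen by a ratio of levels in counts per 1000000 (CPM): the mean of proximo-distal sections 1 to 3 plus 5 CPM, over the mean of sections 7 to 22 plus 5 CPM. The choice was made among 13398 unnamed loci with at least 50 counts in that series, out of 23869 loci in all. All libraries came from young animals, with no treatment or genotype named, and each is the polyadenylated RNA of 1 cryosection of a whole arm. From specimen 2 came the left-right series of 16 sections, across the width of an arm; from specimen 1 came the oral-aboral series of 8 sections, between the mouth-bearing and the upper face, and the proximo-distal series of 22 sections, along the length. Sections are known by number alone, with no label for the end at which numbering starts, so directions are given by number. No position was sampled again, and sections are places in 1 arm, not replicates.

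A sea star arm carries the skin and skeleton on its outside, a radial nerve cord and rows of tube feet along the midline of its oral face, and, for part of its length, branches of the digestive system inside. A slice across any axis therefore mixes these tissues in other proportions, and in such bulk RNA fewer cells of a type and less RNA per cell cannot be told apart. New skeletal and tube foot elements are added near the arm tip during growth, where the terminal tube foot and the eye spot lie. The 150 loci carry only assembly identifiers, and 0 of the 150 matched the RefSeq gene table, so they are given by identifier and no role is stated for any of them.

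Total counts were 196002 to 274776 in proximo-distal sections 1 to 3. They were 645959 to 1591759 in the 6 central left-right sections (6 to 11) and 250704 to 1319963 in the 10 outer ones. Oral-aboral totals were 2573762 to 6921408 in the 4 central sections (3 to 6) and 3774958 to 6292484 in the 4 outer ones. A count of 0 allowed up to 15.3 CPM in proximo-distal section 2, as 3 counts of its total, and these floors cover counting error only.

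Along the length of the arm, the 150 loci had ratios between 3.21 and 9.23, with a median of 3.65, against a median of 1.01 over all 13398 loci. These values chose the loci and are given as a description. Levels declined over many sections: relative to its own mean in sections 1 to 3, the median locus stood at 58.5% in sections 4 to 6, 30.4% in sections 7 to 11, 17.9% in sections 12 to 15 and 13.1% in sections 16 to 22. The highest single section was section 1 for 86 of the loci, section 2 for 25, section 3 for 24, section 4 for 8 and section 5 for 7. Summed over the 150, the level was 39297 CPM in section 1, 27353 CPM in section 2, 25542 CPM in section 3, 13160 CPM in section 7 and 3204 CPM in section 22. In 117 of the 150, the lowest of sections 1 to 3 exceeded the highest of sections 7 to 22. The choice by these same sections favours such a gap, and its share over the 13398 loci was not computed.

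The counts behind these ratios were modest. A median of 51.5 counts per locus fell in sections 1 to 3, with a range of 18 to 2537, and 6 loci had fewer than 20 there. The 10 loci with the most counts held 53.9% of all counts of the 150. The boundary was also close: V4_HAP1_PB.5484, the last locus inside, had a ratio of 3.210 and V4_HAP1_PB.12152, the first outside, had 3.207. Of the 150 loci, 12 (8%) carry the HAP2 tag of the assembly, against 2.11% of the 13398. There were 12 pairs of members with consecutive identifier numbers, involving 22 loci; the files do not say whether such numbers mark neighbouring genes or pieces of 1 transcription unit.

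The strongest ratio belonged to V4_HAP1_PB.20099, with 494, 195 and 141 CPM in sections 1 to 3, against 7.39 to 58.2 CPM in sections 7 to 22. Its neighbour by number, V4_HAP1_PB.20100, was highest in section 1, at 132 CPM there and 10.3 and 16.1 CPM in sections 2 and 3. V4_HAP1_PB.12043, among the 3 loci with the most counts, was at 3320, 2402 and 1657 CPM in sections 1 to 3 and 107 CPM in section 22. The locus with the most counts, V4_HAP1_PB.8990, had a shallow profile, with 4054, 3243 and 3202 CPM in sections 1 to 3 and still 588 CPM in section 22.

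**Figure D1:**
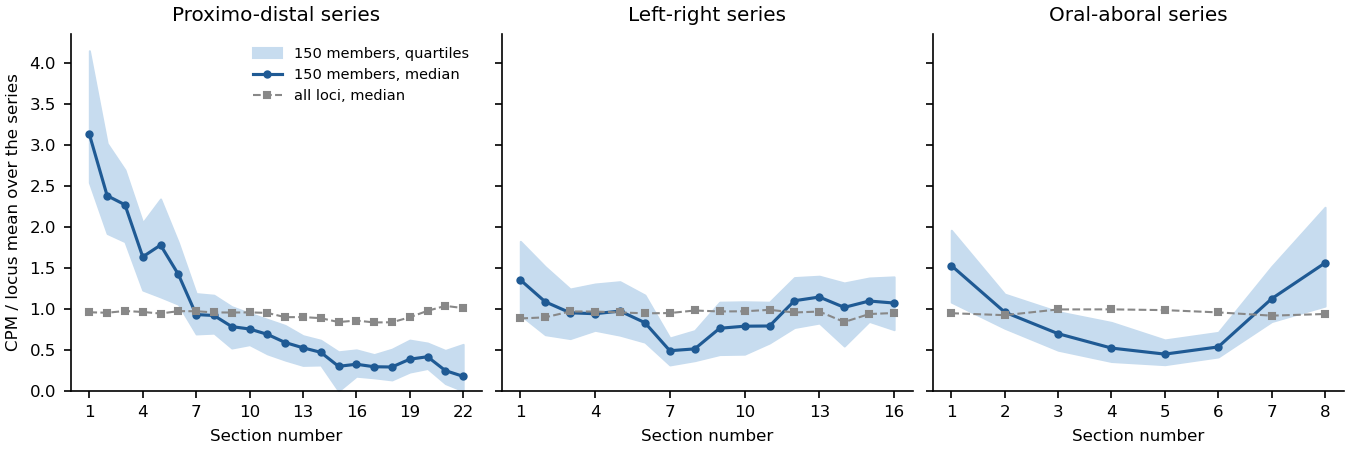
Median level of the 150 loci by section in each series, each locus divided by its own mean over the series (y axis, CPM over locus mean), with the quartiles shaded and the median over all loci dashed. The median of the 150 declines from 3.13 in proximo-distal section 1 to 0.18 in section 22, is lowest at left-right sections 7 and 8 (0.49 and 0.51), and is lowest at oral-aboral section 5 (0.45).

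The other axes, which had no part in the choice, ask where across the arm these loci were expressed. On the oral-aboral axis most were lower in the middle than at the ends, and on the left-right axis lower calls outnumbered higher ones. Of the 148 loci tested along the oral-aboral axis, 110 were lower in the middle and 5 were higher, where 23.3% and 27.0% of all 20395 loci tested were called. In the left-right series, from the other specimen, 49 of 135 were lower in the middle and 10 were higher, where 8.96% and 12.9% of all 16523 loci were called. These calls used edgeR's quasi-likelihood test with Benjamini-Hochberg adjustment over all loci, at 0.05, on a curve through position whose middle effect is the fitted centre minus the fitted ends. The median middle effect, in log2, was -1.80 over the 148 loci and 0.07 over all loci in the oral-aboral series, and -0.79 over the 135 and 0.12 over all loci in the left-right series.

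The filter on low counts left out 15 of the 150 loci in the left-right series, with 2 to 43 counts each, and 2 in the oral-aboral series, V4_HAP1_PB.20100 with 7 counts and V4_HAP1_PB.1849 with 12. Depth moved with the left-right calls: 44 of the 75 loci with more counts there were lower in the middle, against 5 of the 60 tested among the 75 with fewer counts. The latter share was near the 8.96% of all loci at any depth. Median effects were -1.05 and -0.455, beside 0.12 over all loci, so both sets lay below it. Shares of all loci at matching depth were not computed, so the calls cannot tell where an excess lay. With the deeper oral-aboral libraries, 61 of the 75 loci with more counts and 49 of the 73 tested with fewer counts were lower in the middle. Of all loci at any depth, 23.3% were. By rank of the ratio, 35 of the 48 tested among ranks 1 to 50, 40 of ranks 51 to 100 and 35 of ranks 101 to 150 were lower in the oral-aboral middle. In the left-right middle, 20 of the 42 tested among ranks 1 to 50, 13 of 44 and 16 of 49 were lower. Median effects were -0.90, -0.82 and -0.66, and 7 of the 10 higher calls fell in ranks 1 to 50. Of all loci, 8.96% were lower there and 12.9% higher. Scaling libraries by total count alone raised the median middle effect of all loci to 0.49 in the left-right and 0.32 in the oral-aboral series, and left 29 of the 150 loci lower in the left-right middle, where 4.46% of all loci were then called. P-values rest on sections of 1 arm, whose neighbours may resemble each other, and are approximate.

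In the median profile of the 150, the central oral-aboral sections stood at 0.551 ± 0.105 of the locus mean (SD over 4 sections) and the outer ones at 1.30 ± 0.298 (SD over 4 sections), with no overlap between them. The central left-right sections stood at 0.697 ± 0.153 (SD over 6 sections) and the outer ones at 1.07 ± 0.12 (SD over 10 sections), again with no overlap. The median locus was 2.56 times higher in the outer than in the central sections of the oral-aboral series, and 1.52 times higher in the left-right series. Taken singly, 79 of 148 loci had every central oral-aboral section below every outer one, where 16.3% of all loci did and 4 had every central section above, where 22.8% did. In the left-right series 4 of 135 had every central section below every outer one, where 0.896% of all loci did, and 0 had every central section above, where 0.732% did. Both ends of the oral-aboral axis stood high: oral-aboral section 8 was the highest section for 66 of the 150 and section 1 for 53. The shares of all loci highest in these sections were not computed. A more flexible curve over position (natural spline, edgeR adjusted p under 0.05) placed the fitted peak in sections 7 and 8 for 63 of 148. Of all loci 15.2% were so called. The peak was in sections 1 and 2 for 38 (6.86% of all loci) and in sections 3 to 6 for 5 (21.2%).

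**Figure D2:**
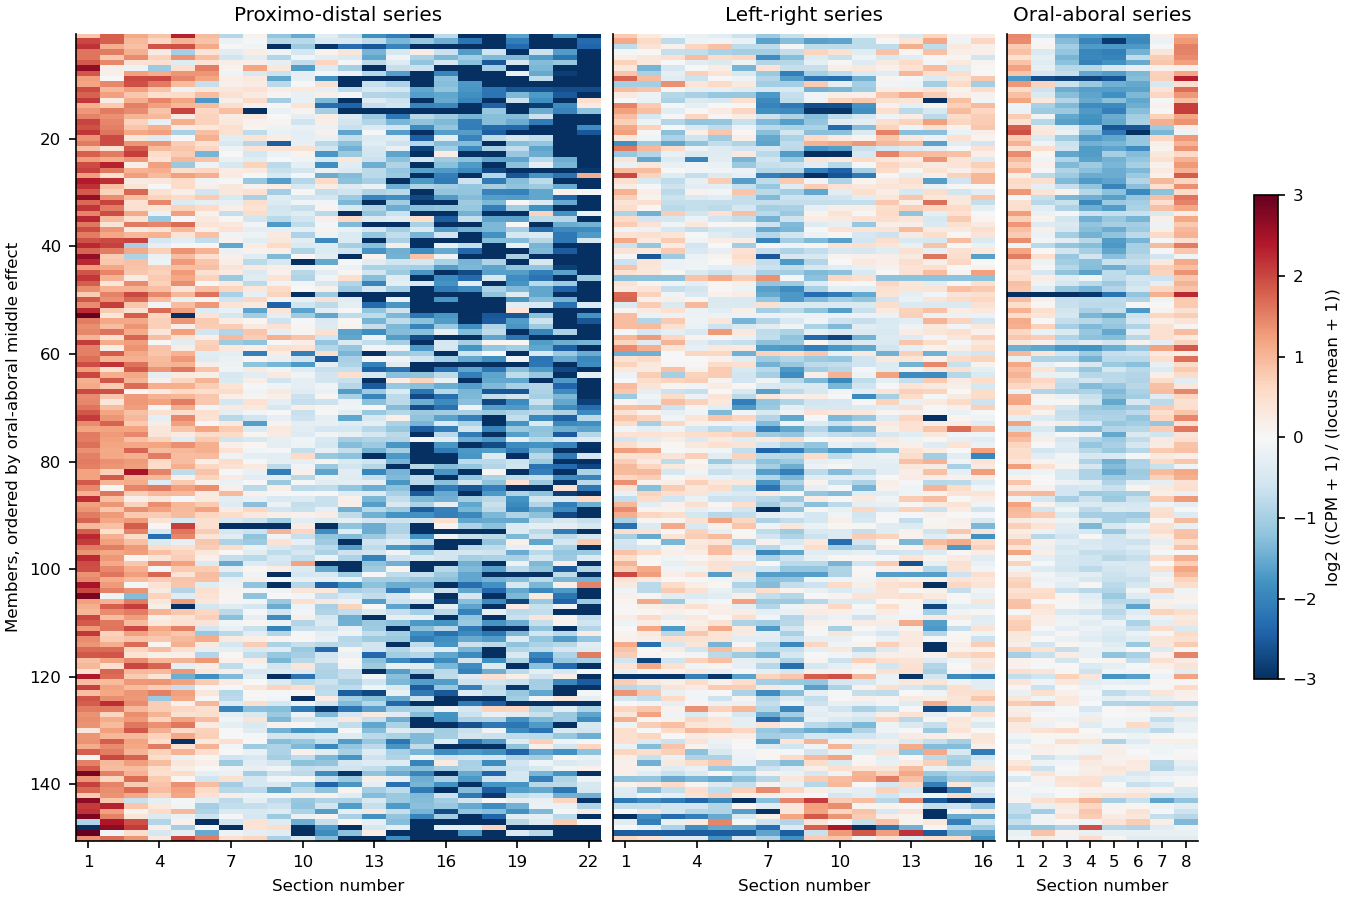
Level of each of the 150 loci by section, as log2 of CPM plus 1 over the locus mean plus 1 (red above, blue below the locus mean), with the loci in the same order in the 3 panels, from the lowest to the highest oral-aboral middle effect. Blue runs down the central oral-aboral sections for most loci and is paler and more broken in the left-right series, and a small group at the bottom is red in the left-right centre.

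V4_HAP1_PB.12043 ranged from 105 to 507 CPM in the central left-right sections (median 299.7) and from 537 to 1082 CPM in the outer ones (median 699). Its oral-aboral levels were 2850, 1324, 738, 582, 493, 547, 1687 and 2882 CPM in sections 1 to 8. The central and outer sections did not overlap on either axis. Its middle effect was -1.87 ± 0.45 (log2, SE; edgeR adjusted p = 0.00556) in the left-right and -2.57 ± 0.25 (adjusted p = 7.91e-05) in the oral-aboral series.

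V4_HAP1_PB.13743 was at 7.55 to 22.3 CPM in the central left-right sections (median 8.97), against 14.6 to 58.0 CPM in the outer ones (median 30.3), which overlapped. Through oral-aboral sections 1 to 8 it had 183, 64.8, 26.8, 16.3, 8.33, 16.9, 59.4 and 164 CPM, so that the ends were high alike and the centre low. The oral-aboral middle effect was -3.84 ± 0.30 (edgeR adjusted p = 5.92e-05). Its neighbour by number, V4_HAP1_PB.13742, had the same shape there at 11.0, 6.26, 2.41, 1.12, 1.10, 1.10, 5.78 and 18.5 CPM, but only 12 counts in the left-right series, too few to test.

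V4_HAP1_PB.5189 had 35.8 to 117 CPM in the central left-right sections (median 63.4), against 84.5 to 469 CPM in the outer ones (median 217.6), which overlapped. Its left-right middle effect was -2.98 ± 0.38 (edgeR adjusted p = 2.49e-05), with the highest levels at the outermost positions, 458 CPM in section 16 and 469 CPM in section 1. V4_HAP1_PB.20573, the locus with the smallest p among those lower in the left-right middle, was at 5.02 to 13.4 CPM in the central sections and 12.2 to 65.0 CPM in the outer ones, with a middle effect of -2.51 ± 0.28 (edgeR adjusted p = 6.25e-06). V4_HAP1_PB.2962 followed the pattern on 1 axis: it had 13.8 to 26.8 CPM in the central oral-aboral sections and 44.7 to 173 CPM in the outer ones, with an effect of -3.27 ± 0.25 (edgeR adjusted p = 5.42e-05), whereas its left-right effect was -0.13 ± 0.44 (adjusted p = 0.869).

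The locus with the most proximo-distal counts, V4_HAP1_PB.8990, was flat in the oral-aboral series, at 1003, 1140, 1149, 1187, 1049, 981, 1149 and 1108 CPM, with a middle effect of 0.05 ± 0.19 (edgeR adjusted p = 0.846). In the left-right series its middle effect was -1.08 ± 0.28 (adjusted p = 0.00917), a call that ended with scaling by total count alone (adjusted p = 0.0782).

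Read jointly, 44 of the 134 loci tested on both axes were lower in the middle of both, where 4.68% of all 16218 loci tested on both were. In both middles 2 loci were higher, where 6.55% of all loci were, and 2 had opposite calls, where 2.05% did. A further 52 were lower in the oral-aboral middle without a left-right call, and 21 had no call on either axis. The shares of all loci in these last 2 classes were not computed, so these counts describe the members only. Across the 134 loci, Spearman's rho between the 2 middle effects was 0.449, beside 0.413 over the 16218 loci; these are correlations across loci that share libraries, and loci are not independent replicates.

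**Figure D3:**
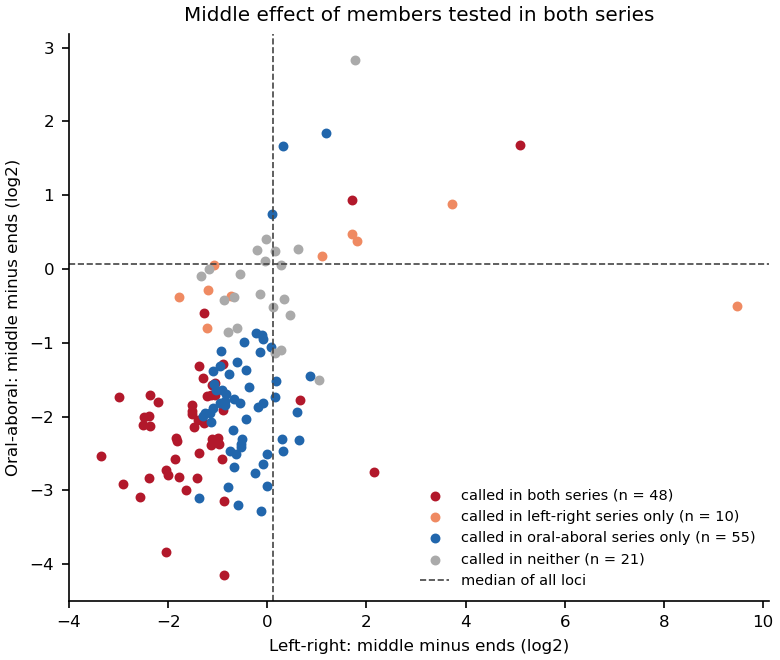
Middle effect of the 134 loci tested in both series, left-right on the x axis and oral-aboral on the y axis (log2, fitted centre minus fitted ends), coloured by call, with the median of all loci dashed at 0.12 and 0.07. Of the points, 98 lie below 0 on both axes, and 48 were called on both, 10 in the left-right series only, 55 in the oral-aboral series only and 21 on neither. Of all 16218 loci tested on both, 4.68% were called lower in both middles, 6.55% higher in both and 2.05% in opposite directions. Shares of all loci in the other classes, and below 0 on both axes, were not computed. Of all loci tested in each series, 44.4% were below 0 in the left-right and 47.5% in the oral-aboral series.

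Some loci of the first sections behaved the other way and peaked in the middle of the arm's width. V4_HAP1_PB.17331 had 11.9 to 62.9 CPM in the central left-right sections (median 34.4), against 0 to 19.7 CPM in the outer ones (median 4.53), which overlapped. The middle effect was 5.09 ± 0.58 (edgeR adjusted p = 6.98e-06), and 297 of its 365 left-right counts lay in the 6 central sections. It was also higher in the oral-aboral middle, at 14.9, 19.4, 13.4 and 14.3 CPM in sections 3 to 6, against 5.33, 10.3, 6.39 and 5.69 CPM in sections 1, 2, 7 and 8, with an effect of 1.69 ± 0.26 (adjusted p = 0.00068).

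V4_HAP1_PB.8020 peaked at the same place, with 163 and 182 CPM in left-right sections 9 and 10. Its central sections ranged from 53.8 to 182 CPM and its outer ones from 30.3 to 74.2 CPM, and its middle effect was 1.71 ± 0.37 (edgeR adjusted p = 0.00271). Between the oral and aboral faces it had 43.6 to 64.6 CPM in the central and 24.9 to 37.7 CPM in the outer sections, with an effect of 0.94 ± 0.21 (adjusted p = 0.00462) that lost its call without section 1 (adjusted p = 0.103). V4_HAP1_PB.3273 had 4.09 to 7.40 CPM in the central and 1.34 to 3.65 CPM in the outer oral-aboral sections; its effect of 1.66 ± 0.44 (edgeR adjusted p = 0.0115) lost its call without section 4 (adjusted p = 0.0519) or section 8 (adjusted p = 0.0789).

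V4_HAP1_PB.22748 averaged 15.4 ± 9.80 CPM in the 6 central left-right sections and 1.25 ± 1.99 CPM in the 10 outer ones (SD over sections), with 135 and 10 counts there (edgeR adjusted p = 1.2e-05). Its highest oral-aboral section was section 8, at 14.3 CPM, and no middle effect was called. V4_HAP1_PB.20100 had nearly all of its 92 left-right counts in sections 9 to 13, at 2.52, 12.5, 19.2, 12.2 and 24.1 CPM, and 0 counts in sections 1 to 6. It was called higher in the middle and rising towards section 16 by edgeR, but its fitted effects rest on sections at 0 and neither call held with DESeq2 (adjusted p = 0.177 and 0.0935) or limma-trend (adjusted p = 0.231 and 0.375).

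The opposite calls on the 2 axes belonged to V4_HAP1_PB.4105 and V4_HAP1_PB.7018. V4_HAP1_PB.4105 had 31.5, 33.5, 37.6, 30.0 and 28.4 CPM in left-right sections 9 to 13 and at most 11.6 CPM elsewhere, and its oral-aboral levels were 16.9, 6.93, 4.53, 2.23, 2.36, 2.93, 8.83 and 16.4 CPM. The left-right effect was 2.15 ± 0.60 (edgeR adjusted p = 0.0139) and the oral-aboral effect -2.75 ± 0.26 (adjusted p = 7.49e-05). The left-right call ended without section 16 (adjusted p = 0.0785) and was not made by limma-trend, where its adjusted p was 0.0906. The call of V4_HAP1_PB.7018 (0.67 ± 0.23, edgeR adjusted p = 0.0447) was lost without any of 11 single sections, among them section 1 (adjusted p = 0.128). The count of 10 loci higher in the left-right middle was 6 without section 8, 11 or 16, where 9.55%, 11.5% and 12.0% of all loci were called. The other 4 of the 10, V4_HAP1_PB.22383, V4_HAP1_PB.8140, V4_HAP1_PB.13328 and V4_HAP1_PB.26394, had adjusted p-values between 0.00708 and 0.0498. With each section left out in turn, V4_HAP1_PB.22383 kept its call in 16 of 16 fits, V4_HAP1_PB.8140 in 9, V4_HAP1_PB.13328 in 4 and V4_HAP1_PB.26394 in 3, with adjusted p-values up to 0.184, 0.0985 and 0.124 for the last 3. With limma-trend V4_HAP1_PB.13328 and V4_HAP1_PB.26394 also missed the threshold (adjusted p = 0.0887 and 0.0633).

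**Figure D4:**
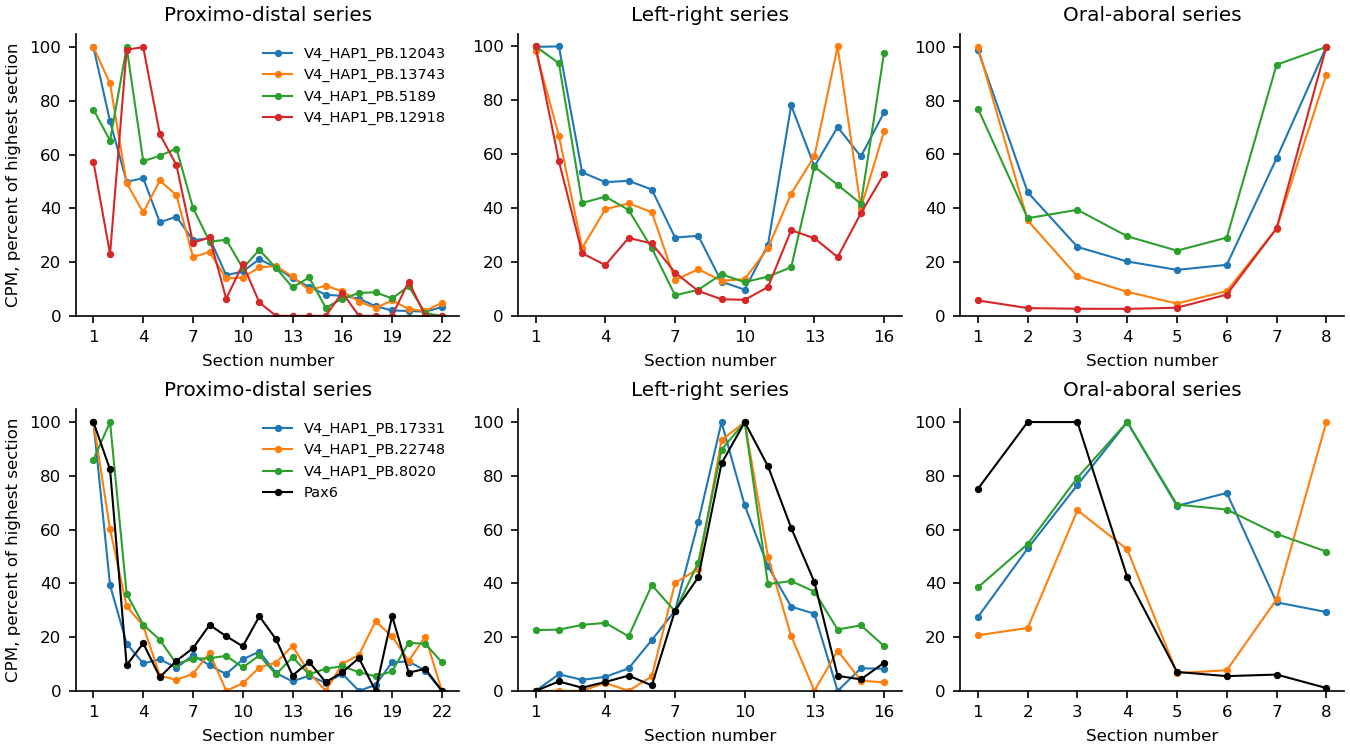
Level by section, as a percent of each locus's highest section, of 4 loci low in the middle (upper panels) and of 3 loci high in the left-right middle together with Pax6 (lower panels). All 8 are highest in proximo-distal sections 1 to 4, the upper group is higher towards both left-right ends than at sections 7 to 10, and the lower group peaks at left-right section 9 or 10.

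Between the ends of each axis the 150 loci differed less. Along the oral-aboral axis 16 of 148 rose towards section 8 and 6 fell, where 5.68% and 2.74% of all loci were called; with total-count scaling 14 rose and 17 fell, where 3.80% and 10.3% were called. Without section 1 these counts were 2 and 1 of 147, where 1.74% and 1.38% were called, so the members were then no more frequent than all loci. Without section 8 they were 10 and 2, where 3.21% and 0.752% were called. Fitted with position alone, without the middle term, 1 rose (V4_HAP1_PB.12919) and 0 fell, where 0.688% and 0.0658% were called. In the left-right series 1 of 135, V4_HAP1_PB.20100, rose towards section 16 and 0 fell by edgeR, where 0.92% and 0.151% of all loci were called. At an unadjusted edgeR p under 0.05, 25 of the 135 passed, where 12.2% of all loci did. Of them 8 were falling, where 4.77% of all loci were. DESeq2 called 1 falling, where 0.169% of all loci were called. With limma-trend 0 members fell, where only 1 of all 16523 loci did. Members with a slope in either direction were mostly lower in the middle too. Of all members tested, with or without a slope, 110 of 148 were lower in the oral-aboral and 49 of 135 in the left-right middle. Of all loci 23.3% and 8.96% were. All 16 that rose in the oral-aboral series were lower in its middle, where 64.7% of all rising loci were, and 12 of the 16 were lower in the left-right middle, where 26.2% of those tested were. Of the 6 that fell, 5 were lower in the oral-aboral middle, where 14.5% of all falling loci were, and 3 of the 5 tested were lower in the left-right middle, where 6.79% were.

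V4_HAP1_PB.5732, with 447713 oral-aboral and 201556 left-right counts the most counted of the 150 on these axes, was among those that rose. It had 4484, 4190, 3668, 3555, 4412, 5620, 28658 and 44204 CPM in oral-aboral sections 1 to 8, so that only the last 2 sections stood high. The slope was 3.34 ± 0.47 (log2, section 8 minus section 1; edgeR adjusted p = 0.00266) and lost its call without section 1 (adjusted p = 0.0744). In the left-right series it ranged from 3204 to 16118 CPM in the central sections (median 4062) and from 8911 to 35479 CPM in the outer ones (median 15638), with a middle effect of -2.39 ± 0.45 (edgeR adjusted p = 0.00093).

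This locus weighs on summed levels of the 150. With it the sum was 9476 CPM in left-right section 9 and 59272 CPM in section 1; without it, 6272 and 23794 CPM. On the oral-aboral axis the sum was 76472 CPM in section 8 and 27658 CPM in section 1 with it, and 32267 and 23174 CPM without it. Counts and medians over loci, given above, weigh it as 1 locus.

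The steepest slopes were those of the consecutive pair V4_HAP1_PB.12918 and V4_HAP1_PB.12919. V4_HAP1_PB.12918 had 19.1, 9.61, 8.78, 8.66, 10.1, 26.4, 108 and 334 CPM in oral-aboral sections 1 to 8, and V4_HAP1_PB.12919 had 8.30, 5.81, 8.21, 11.3, 19.0, 39.2, 190 and 438 CPM. Their slopes were 4.30 ± 0.27 and 6.08 ± 0.33 (edgeR adjusted p = 2.96e-05 and 2.08e-05), and both kept their call without any 1 section. Both were also highest in left-right section 1, at 266 and 385 CPM. V4_HAP1_PB.14953, with 30.7 and 68.7 CPM in oral-aboral sections 7 and 8 and 7.26 to 18.2 CPM before them, had a slope of 1.86 ± 0.25 (edgeR adjusted p = 0.00232) that lost its call without section 1 (adjusted p = 0.0583).

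The 6 loci that fell stood higher at section 1 than at section 8. V4_HAP1_PB.1851 had 29.3, 33.1, 20.4, 16.9, 8.64, 8.43, 9.13 and 8.85 CPM in oral-aboral sections 1 to 8, a slope of -2.19 ± 0.33 (edgeR adjusted p = 0.00373) that kept its call without any 1 section. V4_HAP1_PB.16886 had 45.2 CPM in section 1, 0.366 CPM in section 6 and 10.1 CPM in section 8; its slope of -2.64 ± 0.52 (edgeR adjusted p = 0.0142) lost its call without section 1 (adjusted p = 0.0658) or section 8 (adjusted p = 0.0554). V4_HAP1_PB.9942 had 2.74 CPM in section 8 and 8.59 CPM in section 1, and its slope of -1.98 ± 0.45 (edgeR adjusted p = 0.0263) lost its call without section 1, 2 or 8.

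The pooled level of a locus was also set against its proximo-distal level. The left-right over proximo-distal ratio had a median of 0.662 over the 150, close to the 0.736 over the 13398 loci, with a range of 0.00562 to 50.1. It was below 0.1 for 7 of the 150 (4.67%), near the 4.90% of all loci, and above 10 for 7 (4.67%), against 0.791% of all loci. The oral-aboral over proximo-distal ratio, within specimen 1, had a median of 0.564 over the 150 and 0.874 over all loci; it was below 0.1 for 9 (6%), against 0.418% of all loci, and above 10 for 3 (2%), against 0.276%. High proximo-distal sections chose the 150, so these ratios are a description. V4_HAP1_PB.10601, with the ratio ranked next to the highest, had 2 counts in the left-right series of specimen 2. In the oral-aboral series of specimen 1 it had 666 counts, at 24.4, 21.7, 11.6, 5.86, 5.03, 10.3, 26.2 and 28.2 CPM (middle effect -2.07 ± 0.42, edgeR adjusted p = 0.00277). V4_HAP1_PB.19383 was the other way round, at 620 to 1511 CPM in the central and 1508 to 6414 CPM in the outer left-right sections, against at most 286 CPM in any proximo-distal and 127 CPM in any oral-aboral section. Specimen, arm and axis changed together between the left-right and the other series and cannot be told apart.

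The developmental regulators, which carry gene symbols, had a median ratio of 0.975 over the 50 with at least 50 proximo-distal counts, beside 1.01 over the 13398 loci, and 25 of the 50 had a ratio above 1. Of the 50, Pax6 alone reached the range of the 150, with a ratio of 4.23. Pax6, a transcription factor of eye and nervous system development in many animals, had 168, 139 and 16.1 CPM in proximo-distal sections 1 to 3. Its ratio rests on sections 1 and 2, as section 3 held only 4 counts. In sections 7 to 22 Pax6 had 0 to 46.8 CPM, with a mean of 21.6 CPM. Next were the homeobox gene Lhx1-5 at 2.57, the homeobox gene Gbx at 2.37, and the Wnt ligand gene Wnt3 at 2.36, followed by Wnt10 with 43.9, 30.8 and 4.02 CPM in sections 1 to 3. Among 9 Hox genes, which pattern body axes, ratios ran from 0.339 for Hox11-13b to 1.44 for Hox7, and among 8 Wnt genes from 0.264 for Wnt1 to 2.36 for Wnt3. The medians were 0.797 over 14 anterior regulators, 1.80 over 4 genes of the midbrain-hindbrain type (Engrailed, Pax2-5-8, FGF8-17-18 and Gbx) and 1.64 over 4 genes of the BMP pathway.

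Across the arm Pax6 did not share the pattern of most of the 150. It averaged 42.4 ± 28.4 CPM in the central left-right sections and 10.0 ± 15.1 CPM in the outer ones (SD over 6 and 10 sections), with its peak of 74.3 CPM in section 10, the section in which V4_HAP1_PB.8020 and V4_HAP1_PB.22748 also peaked. Its left-right middle effect was 6.35 ± 0.71 (edgeR adjusted p = 6.25e-06). In the oral-aboral series it fell towards section 8, at 20.1 CPM in sections 2 and 3 and 0.211 CPM in section 8.

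The regulators whose left-right profile over 16 sections was most like the median profile of the 150 were Otp (Spearman's rho 0.844), Hox11-13d and Pax2-5-8 (0.765 each), among 54 tested. Least like were FoxA (-0.882), Hox8 (-0.857) and Sfrp1-5 (-0.765). Over the 8 oral-aboral sections, Lhx1-5 (0.976), Hbn and Otp (0.929 each) were most like among 63, and Hox11-13c (-0.994), FoxA and Fzd4 (-0.976 each) least like. The sections compared share libraries, depth and neighbours, so these are descriptions. Lhx1-5 had 160, 64.1, 42.2, 34.3, 33.8, 37.7, 93.4 and 124 CPM in oral-aboral sections 1 to 8, with a middle effect of -2.17 ± 0.21 (edgeR adjusted p = 8.08e-05).

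FoxA, a transcription factor of the developing gut, and Nkx2.2 were the 2 genes matched of a list of 5 endoderm regulators. Their summed level was 44.6 to 175 CPM in the central and 1.14 to 44.2 CPM in the outer left-right sections, and 608 to 760 CPM in the central and 15.0 to 226 CPM in the outer oral-aboral sections. FoxA was highest in left-right sections 7 and 8, at 124 and 117 CPM, the sections in which the median profile of the 150 was lowest. Along the arm their sum was 14.6 to 46.2 CPM in sections 1 to 3 and 11.1 to 2816 CPM in sections 7 to 22, with FoxA at 1918 CPM in section 22. In sections 7 to 11 FoxA was still at 6.67 to 25.7 CPM and Nkx2.2 at 2.14 to 11.4 CPM, and FoxA reached 76.7 CPM in section 12. The median of the 150 stood at 30.4% of its mean of sections 1 to 3 in sections 7 to 11. The part of endodermal tissue in the profiles of the 150 loci was not tested.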

How the data were processed

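Arms were cryosectioned and polyadenylated RNA of each section was sequenced; the labels' protocols name PacBio Iso-Seq library kits. The deposited file holds the authors' raw counts per transcript model in 46 libraries, all used. How reads were mapped, counted and filtered, and on which build, is not given in the sources used here. The 25794 entries were summed by locus to 23869 loci, of which 66 are named regulators; 23 of the 150 members had 2 transcript models. For the ratio, CPM used the column total without V4_HAP1_PB.21421.

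The members and the lists were chosen with earlier results of these data known. Each of the left-right and oral-aboral series was fitted alone with edgeR 4.0.16 in R 4.3.3: filterByExpr (minimum count 5, minimum total 15), TMM scaling, and a quasi-likelihood test of a slope and a middle term over position scaled from first to last section, with Benjamini-Hochberg adjustment over all loci at 0.05. CPM of these series are per TMM-scaled library, and standard errors come from the fitted effect and its F statistic. The fits were also run on simulated counts drawn independently for each section. Likeness between neighbouring sections was not simulated, so that run does not bear on this limit of the p-values. Loci named were the 10 highest ratios, those around rank 150, the 3 with most counts, up to 3 called members per test and direction, and the regulators nearest by ratio or profile; V4_HAP1_PB.4105, V4_HAP1_PB.7018 and the other members higher in the left-right middle were named after their values were seen. Lists of regulators (Hox, Wnt, anterior, midbrain-hindbrain type, BMP and endoderm) were matched by symbol. Alternatives were other size factors, filters and tests (DESeq2 1.42.0, limma 3.58.1), blocks of sections, and leaving out sections.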

Additional observations from a re-analysis of the deposited data

Results flagged for a closer look

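In 124 groups of central or outer sections, formed from 30 loci and the median profile, a section was compared with the rest of its group. The measure was the gap to its nearest neighbour over the range. Of these groups 20 held a section far from the others. A chance share of about 1 in 20 assumes sections in no order. These are ordered positions, and many of the loci were named for their position effects, so that share is no yardstick here. The values below are CPM unless named otherwise.

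Left-right section 6, the first of the central sections, stood above the other 5 for V4_HAP1_PB.5732 (16118, next 4480), V4_HAP1_PB.8990 (714, next 427), V4_HAP1_PB.12919 (137, next 41.0) and V4_HAP1_PB.5032 (5.95, next 2.30). Left-right section 1 stood above the other outer sections for the median profile of the 150 (1.36 of the locus mean, next 1.15), V4_HAP1_PB.20573 (65.0, next 29.4), V4_HAP1_PB.12918 (266, next 152) and V4_HAP1_PB.12919 (385, next 190).

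Left-right section 13 stood above the other outer sections for V4_HAP1_PB.22383 (327, next 68.5) and V4_HAP1_PB.20100 (24.1, next 12.2), and the central section 11 was high for V4_HAP1_PB.20099 (21.5, next 11.1). Left-right section 14, the shallowest of its series at 250704 counts, stood out for V4_HAP1_PB.1851 (78.7, next 49.3) and V4_HAP1_PB.5032 (12.4, next 6.84). V4_HAP1_PB.13742 had 0.628 in left-right section 8 and 0 in the other central sections; this is 1 count, below the floor of 3 counts (1.88), and 1 count among zeros always stands out.

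In the oral-aboral series, section 3 was high among the 4 central sections for V4_HAP1_PB.13742 (2.41, next 1.12), V4_HAP1_PB.19383 (32.7, next 15.9) and V4_HAP1_PB.20100 (0.283, which is 2 counts and below the floor of 0.433, the others 0), and section 6 for V4_HAP1_PB.12918 (26.4, next 10.1). Among the 4 outer sections, section 8 was high for V4_HAP1_PB.22748 (14.3, next 4.87) and section 2 for V4_HAP1_PB.20100 (1.12, or 5 counts, the others 0).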

How the results depend on the processing

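Over the loci named, 1091 alternative values kept their direction and call, 140 kept the direction without the call, and 0 reversed. For members lower in the left-right middle (49), total count alone gave 29, where 4.46% of all loci were called. For those higher there (10), limma-trend and the central sections against the others gave 5 each, where 10.5% and 9.97% of all loci were called. The left-right slope rising towards the last section (1) gave 0 with limma-trend and with position alone and 3 without a low-count filter. It gave 5 with total count alone and 4 without both end sections. Of all loci, 0.309%, 0.0389%, 0.934%, 1.61% and 1.03% rose in these fits, in this order. The falling slope (0) gave 1 with DESeq2, where 0.169% of all loci fell. Without both end sections, 3 of the 144 members tested were higher in the oral-aboral middle (5), 5 rose (16) and 1 fell (6). Of all loci, 15.7%, 2.1% and 1.15% were so called in this fit, in this order. With position alone, 1 rose and 0 fell in the oral-aboral series, where 0.688% and 0.0658% of all loci did. With total count alone 17 fell, where 10.3% of all loci did. Leaving out 1 section at a time gave 37 to 52 members lower and 6 to 9 higher in the left-right middle. Of all loci, 6.72% to 10.1% and 9.55% to 13.7% were then called. In that series 1 to 5 members rose and 0 fell, where 0.679% to 1.13% and 0.0243% to 0.173% of all loci did. In the oral-aboral middle 94 to 113 members were lower and 3 to 5 higher, where 16.7% to 26.0% and 19.1% to 26.4% of all loci were. Towards oral-aboral section 8, 2 to 18 members rose and 1 to 8 fell, where 1.74% to 6.40% and 0.752% to 3.45% of all loci did. Of the 150 members, 90 stayed when the ratio was set against sections 7 to 14 and 99 against sections 15 to 22; 10 other settings kept 101 to 145. The cause of these changes was not tested. The low-count proximo-distal choice and the single arm per axis limit all values. No paired analysis was possible because the numbers shared between series are section positions on different axes.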
